A study of Mus musculus with 4 samples.

Results

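The comparison described here set the activated regulatory T cell (aTreg) library labelled Ripk1 knockout against the WT aTreg library, 1 library on each side of the 4 in the series. Of 19044 genes in the count table, 9680 had a mean of at least 5 counts per 1000000 library counts (CPM) over the 4 libraries, and the 9332 of these placed on an autosome were described. Each gene's measure was the log2 ratio of KO-labelled over WT aTreg, with a 95% interval that covers counting error only. The cells were primary Treg cells from spleen and peripheral lymph nodes of untreated mice. All mice carried Foxp3-YFP-Cre, a Cre recombinase tagged with a fluorescent reporter and expressed from the Foxp3 gene, and the knockout mice also carried Ripk1 alleles flanked by loxP sites (Ripk1fl/fl), so that deletion was driven only where Foxp3 is active. A rTreg library of each genotype, by its name the resting cells, made up the other 2 samples. The sources used here do not give the sort gates, the age, sex and number of mice per library, or the exons that Cre removes.

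Treg cells are CD4 T cells that depend on the transcription factor Foxp3 and restrain other lymphocytes. After antigen contact they pass from a resting state, homing to lymphoid tissue, to an activated state with more suppressive and migratory molecules, and in type 1 inflammation some of them take up T-bet, the factor of interferon-gamma producing helper cells. RIPK1 is a kinase and scaffold protein below the tumour necrosis factor receptor. It carries survival signals to NF-kappaB, and when these fail it can start apoptosis through FADD and caspase-8 or necroptosis through RIPK3 and MLKL.

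The targeted gene did not separate the libraries. Ripk1 (a protein-coding gene on the plus strand of chromosome 13, GRCm38, 34002363 to 34037147) was at 77.5 CPM in WT aTreg and 80.8 CPM in KO-labelled aTreg, a log2 ratio of 0.06 [−0.04 to 0.16]. In bulk RNA, fewer cells of a type and less RNA per cell cannot be told apart. A count over the whole gene is a weak check of a deletion of part of it, and the libraries are called KO-labelled for this reason. Ripk1 overlaps Serpinb6a on the opposite strand, and the sources used here do not say whether counting used strand. Libraries held between 17588754 and 20868319 counts. Xist, the RNA of the inactive X chromosome, was at 338 CPM in WT aTreg and 0.213 CPM in KO-labelled aTreg, while the Y-linked Ddx3y was at 97.5 and 112 CPM. The part of this difference in the results was not tested. The defining markers of CD4 T cells summed to 2742 and 2743 CPM in the 2 aTreg libraries, and Foxp3, on the X chromosome, was at 694 and 658 CPM.

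Among the 9332 autosomal genes, 367 (3.93%) were at least 2-fold higher in KO-labelled aTreg and 203 (2.18%) at least 2-fold lower. The whole counting interval lay past 2-fold for 288 and 89 of these. At least 4-fold apart were 74 higher and 8 lower genes, and 82.3% of all genes lay within 1.5-fold. The median log2 ratio was 0.00, with quartiles of −0.25 and 0.26. The 2-fold higher genes together took 1.03% of the counts of WT aTreg and 2.90% of KO-labelled aTreg, and the 2-fold lower genes 1.84% and 0.727%. The level minimum favours large ratios among weakly expressed genes, since a gene low in both libraries of a genotype was kept only through the other genotype. One library a group allows no test of this contrast. Over all 4 libraries, edgeR's quasi-likelihood test with state and genotype as terms called 2363 genes higher (24.4% of 9680) and 2210 lower (22.8%) in the KO-labelled libraries. It called all 367 of the 2-fold higher genes and 197 of the 203 lower ones. The same aTreg libraries enter this fit, so the overlap is no independent support. In what follows "rose" and "fell" mark genes called by this test, which rests on 1 residual degree of freedom and on both states. The words "higher" and "lower" mark aTreg ratios, and "did not pass" marks genes that this test did not call. A gene whose ratio differs between the states can fail it whatever its aTreg ratio. Counts of list members that rose or fell are to be read beside the 24.4% and 22.8% of all genes. With 1 library per state and genotype, the p-values measure no spread between replicates. They set the genotype difference against how much it differs between the states, with dispersion shared across genes. The labels do not tie the libraries to separate animals.

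**Figure D1:**
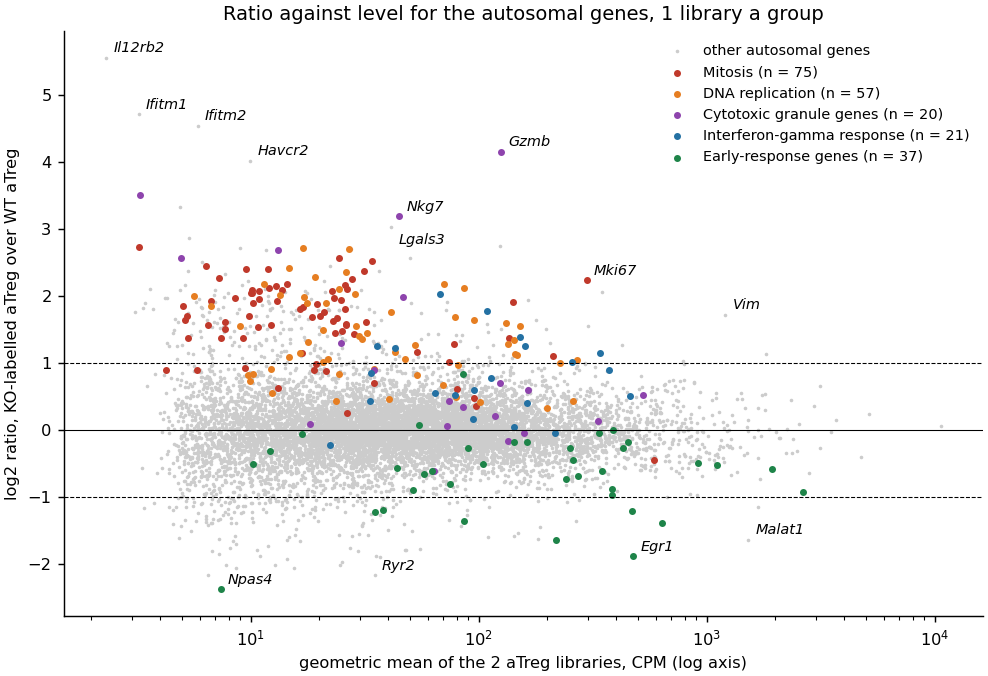
Log2 ratio of KO-labelled aTreg over WT aTreg (y axis) against the geometric mean of the 2 aTreg libraries in CPM (x axis, log scale) for the 9332 autosomal genes, 1 point a gene. Dashed lines mark 2-fold, and mitosis and DNA replication genes lie above the upper line in most cases while most early-response genes lie below 0.

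Granzyme B had the highest ratio among genes that averaged 100 CPM or more in aTreg, and several granule genes of lower level were higher as well. These genes encode proteins by which killer lymphocytes lyse target cells, and some activated Treg cells use them too. Gzmb, the protease granzyme B, stood at 11.5 CPM (rTreg) and 29.6 CPM (aTreg) in WT, and at 215 and 528 CPM in the KO-labelled pair. Both KO-labelled libraries were above both WT libraries, and the aTreg log2 ratio was 4.15 [4.04 to 4.28]. Gzma, granzyme A, stood at 0.286 CPM (rTreg) and 0.923 CPM (aTreg) in WT, and at 7.61 and 11.6 CPM in the KO-labelled pair, a log2 ratio of 3.51 [2.97 to 4.41]. With WT levels this low, Gzma passed the level minimum only through the KO-labelled libraries. The pore-forming perforin gene Prf1 went from 1.99 CPM in WT aTreg to 12.3 in KO-labelled aTreg (2.56 [2.14 to 3.14]), and its rTreg ratio was 1.08. Nkg7, a protein of the granule membrane, was at 14.8 and 135 CPM (3.19). Granzyme inhibitors, which shield cells from their own granules, were higher as well, with Serpina3f at 2.69, Serpina3g at 1.98 and Serpinb9 at 1.29. Reads of the near copies Serpina3f and Serpina3g may be exchanged by counting. The release machinery differed little: none of its 6 measured genes was 2-fold apart, and their median was 0.17. Of all 20 measured granule genes, 14 rose and 1 fell, the cathepsin gene Ctsw (−0.62), and 7 were at least 2-fold higher, with a list median of 0.56.

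**Figure D2:**
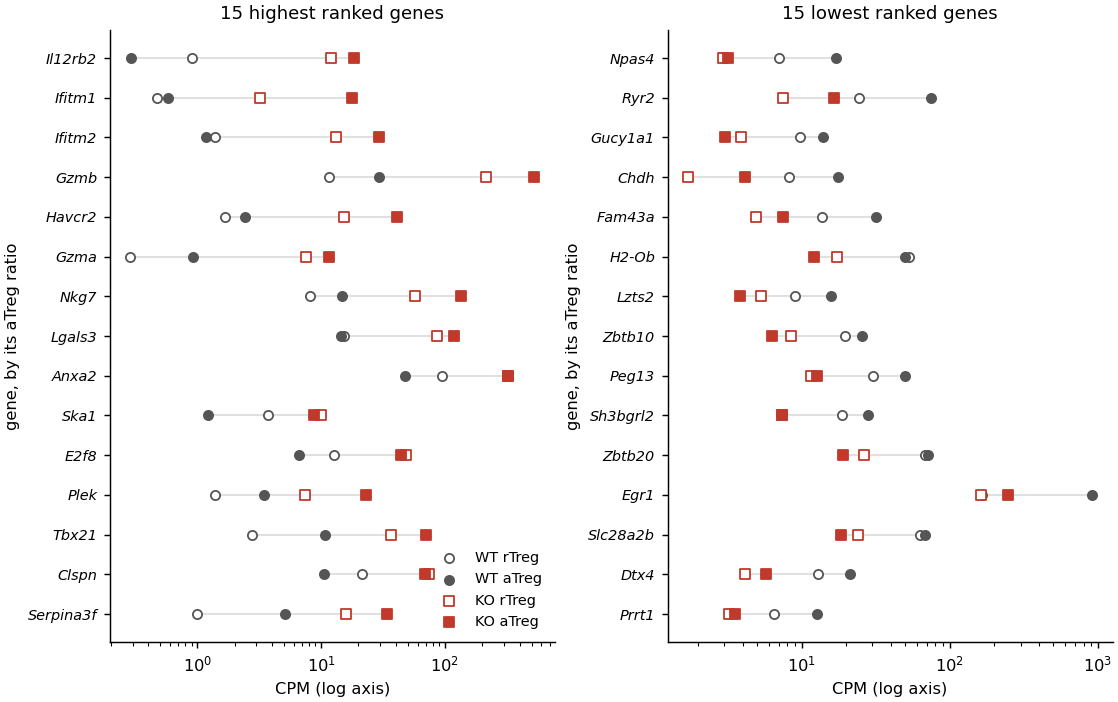
CPM in each of the 4 libraries (x axis, log scale; circles WT, squares KO-labelled, open rTreg, filled aTreg) for the 15 highest and 15 lowest ranked aTreg ratios, 1 gene a line. In the left panel both KO-labelled squares lie to the right of both WT circles for every gene, whereas Egr1 in the right panel has only the WT aTreg circle apart from the rest.

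Genes of the type 1 helper programme, led by T-bet, were higher in KO-labelled aTreg from receptor to cytokine. Il12rb2 (chromosome 6, 67291318 to 67376188, minus strand), the chain that lets a T cell respond to interleukin-12, had the highest ratio of all ranked genes. It stood at 0.905 CPM (rTreg) and 0.291 CPM (aTreg) in WT, and at 11.9 and 18.4 CPM in the KO-labelled pair, a log2 ratio of 5.56 [4.85 to 7.44] that rests on 6 counts in WT aTreg. Both WT levels were under the level minimum of 5 CPM, so Il12rb2 was kept and ranked only through the KO-labelled libraries. It overlaps Serbp1, so some of its reads may be shared. Il18rap and Il18r1, the chains of the interleukin-18 receptor, had ratios of 1.74 and 0.93. Among transcription factors, Tbx21, which encodes T-bet, went from 10.8 to 70.8 CPM (2.70 [2.51 to 2.93]). Runx3, a partner of T-bet, had a ratio of 0.92 [0.83 to 1.02] and Bhlhe40, which supports cytokine output, 0.99. All 6 measured factors of the list rose. Ifng, the cytokine interferon-gamma, stood at 3.29 CPM (rTreg) and 6.85 CPM (aTreg) in WT, and at 12.9 and 28.9 CPM in the KO-labelled pair. Its ratio was 2.06 [1.81 to 2.35], and that of the chemokine Ccl5 was 1.90. Tnf was not higher in aTreg (−0.18) and did not pass the test. The signal transducers below these receptors stood near 0, with a median of 0.06 over 5 genes and Stat4 at 0.16. Of 23 measured genes 16 rose and 3 fell, 7 were at least 2-fold higher, none was 2-fold lower, and the median was 0.63. Cxcr3, a chemokine receptor induced by T-bet, lies on the X chromosome and was not counted here; it was at 64.8 CPM in WT aTreg and 258 in KO-labelled aTreg. Natural killer cells also express T-bet and granzymes: their 4 markers summed to 3.59 CPM in WT aTreg and 9.11 in KO-labelled aTreg, with Klrb1c, which encodes NK1.1, at 2.33 and 1.39 CPM, Klrc1 at 0.389 and 1.55 CPM and Klrk1 at 0.291 and 0.213 CPM. Most of the gain in the sum was that of Eomes, a T-box factor that T cells can also express, at 0.583 and 5.97 CPM in aTreg and 1.57 and 6.98 CPM in rTreg. Of the CD8 T cell markers, Cd8a was at 0.0971 CPM in WT aTreg and 0.799 CPM in KO-labelled aTreg, and Cd8b1 at 7.72 and 8.85 CPM. The part of natural killer cells and CD8 T cells in the result was not tested.

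Genes listed as responding to interferon-gamma were higher, while the list of type I interferon-stimulated genes had a median near 0. The part of Ifng in this was not tested. The first set holds large GTPases that act against intracellular pathogens. Of its 21 measured genes, 19 rose and none fell, 8 were at least 2-fold higher, and the median was 0.77. Gbp2b, a guanylate-binding protein, stood at 16.4 CPM (rTreg) and 33.4 CPM (aTreg) in WT, and at 156 and 136 CPM in the KO-labelled pair, an aTreg ratio of 2.03 [1.91 to 2.16]. Iigp1, an immunity-related GTPase, went from 58.9 to 201 CPM (1.77), Gbp2 from 93.6 to 245 CPM (1.39) and Gbp3 from 103 to 245 CPM (1.26). The list's rTreg median was larger, at 1.26. In WT the list stood a median of 0.13 higher in aTreg than in rTreg, and between the KO-labelled libraries 0.36 lower (log2 −0.36). Cxcl10, a chemokine of the same response, stood at 7.15 CPM (rTreg) and 24.2 CPM (aTreg) in WT, and at 17.8 and 20.6 CPM in the KO-labelled pair, and did not pass the test. Guanylate-binding protein genes are near copies of each other, so their single values carry some uncertainty. Interferon regulatory and STAT factors act on these genes through promoter elements, and those of the 2 abundant genes and of Ifitm2 are shown because they hold the letters of the interferon-stimulated response element. The sequences run 5′ to 3′ along the gene, from RefSeq windows on GRCm38.p6, with 250 bases before the gene's start and 30 after it, and capitals mark GAAANNGAAA on either strand. The windows are chr3:142620413-142620692 (plus strand), chr3:142559794-142560073 (plus strand) and chr7:140955932-140956211 (minus strand).
Gbp2: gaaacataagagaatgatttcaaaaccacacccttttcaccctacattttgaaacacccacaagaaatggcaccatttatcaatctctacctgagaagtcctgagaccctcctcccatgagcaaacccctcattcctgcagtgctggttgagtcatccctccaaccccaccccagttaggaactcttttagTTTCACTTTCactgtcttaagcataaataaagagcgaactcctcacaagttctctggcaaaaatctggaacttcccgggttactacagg
Gbp3: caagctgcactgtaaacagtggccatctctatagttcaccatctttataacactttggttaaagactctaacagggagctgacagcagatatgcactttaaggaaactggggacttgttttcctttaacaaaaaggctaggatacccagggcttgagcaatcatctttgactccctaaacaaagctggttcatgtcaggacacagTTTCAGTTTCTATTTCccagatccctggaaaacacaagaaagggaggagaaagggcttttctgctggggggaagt
Ifitm2: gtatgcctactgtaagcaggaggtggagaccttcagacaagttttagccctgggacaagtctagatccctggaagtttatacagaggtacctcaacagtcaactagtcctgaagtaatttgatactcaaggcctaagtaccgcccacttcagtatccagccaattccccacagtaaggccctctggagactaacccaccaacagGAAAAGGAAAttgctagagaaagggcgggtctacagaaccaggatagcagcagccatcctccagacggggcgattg
Among 7477 autosomal genes matched to a RefSeq window (250 bases before to 50 after the start), 3.34% held these letters. They were in 11 of 14 matched interferon-gamma response genes (78.6%) and in 13 of 23 matched type I interferon-stimulated genes (56.5%). The 11 had a median ratio of 1.02, beside 0.59 in the 3 without these letters. The 13 had a median of −0.06, beside −0.02 in the 10 without. A match of letters is a description and shows no binding.

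The type I interferon-stimulated genes were split. Of 32 measured, 12 rose and 11 fell, 2 were at least 2-fold lower and none 2-fold higher, with a median of −0.04. Oasl1, an antiviral protein of the oligoadenylate synthetase family, went from 15.1 CPM in WT aTreg to 4.37 in KO-labelled aTreg (−1.76 [−2.15 to −1.43]). Usp18, which removes the ubiquitin-like ISG15, had a ratio of −0.92, and the antiviral genes Mx1 and Rsad2 had −0.81 and −0.80. On the other side stood Zbp1, a sensor of Z-form nucleic acid that can engage RIPK3, at 169 and 306 CPM (0.85), and Oas3 at 0.68. Ifitm genes encode membrane proteins that hinder virus entry, and they formed a list of their own, outside the 32 above. Of 6 listed, 3 passed the level minimum, and all 3 were at least 2-fold higher. Ifitm1 and Ifitm2 passed only through the KO-labelled libraries. With no filter on level, the list median was 1.92 in place of 4.54. Ifitm1 stood at 0.476 CPM (rTreg) and 0.583 CPM (aTreg) in WT, and at 3.18 and 17.9 CPM in the KO-labelled pair, a ratio of 4.72 [4.12 to 5.91]. Ifitm2 was at 1.38, 1.17, 13.1 and 29.5 CPM in the same order (4.54 [4.07 to 5.31]), and Ifitm3 went from 6.07 to 23.3 CPM in aTreg (1.92). These genes are neighbours on chromosome 7 and similar in sequence, so reads may be exchanged among them.

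Cell division genes formed the largest group of 2-fold higher genes. Of 75 measured mitosis genes, 62 were at least 2-fold higher and none 2-fold lower, with a median of 1.70. All but 1 rose, and Smc4, a condensin subunit, fell (−0.45). Mki67, the proliferation antigen Ki-67, stood at 238 CPM (rTreg) and 137 CPM (aTreg) in WT, and at 706 and 648 CPM in the KO-labelled pair, an aTreg ratio of 2.24 [2.18 to 2.30]. The WT aTreg library was the lowest of the 4 for this gene. All 11 measured mitotic cyclins and kinases were at least 2-fold higher, from 1.53 (Aurka) to 2.53 (Ccnb2). Ccnb2, a cyclin that drives entry into mitosis, stood at 27.4 CPM (rTreg) and 14.1 CPM (aTreg) in WT, and at 87.0 and 81.8 CPM in the KO-labelled pair. Its partner kinase gene Cdk1 went from 6.70 to 30.9 CPM in aTreg (2.19). Among kinetochore and centromere genes, which attach chromosomes to the spindle, 17 of 21 were 2-fold higher. Ska1 led them at 2.74 [2.23 to 3.51], on a low level of 1.21 CPM in WT aTreg. Spindle and motor genes (15 of 20) included Tpx2 at 2.26 and Kif2c at 2.41. The survivin gene Birc5, of the chromosomal passenger complex, went from 9.96 to 59.4 CPM (2.57). Mitosis genes were a median of 0.79 lower in aTreg than in rTreg in WT (log2 −0.79) and 0.13 lower between the KO-labelled libraries (−0.13), and their genotype ratio was 1.08 in rTreg.

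**Figure D3:**
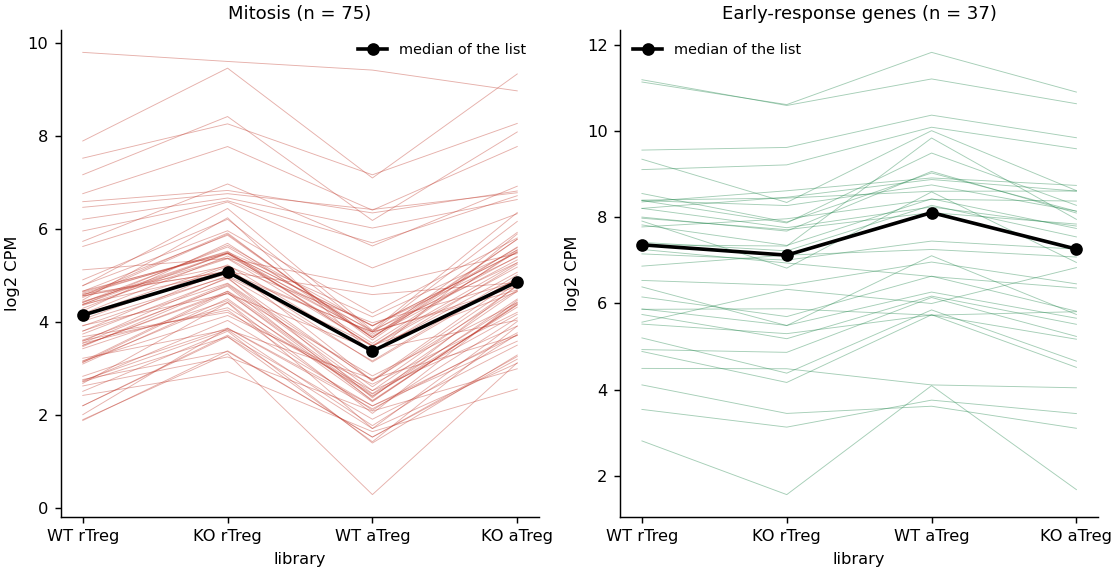
Log2 CPM (y axis) of each of 75 mitosis genes and 37 early-response genes in the 4 libraries (x axis), with a thin line joining the values of 1 gene and a thick line for the list's median in each library. The mitosis median is lowest in WT aTreg, and the early-response median is highest there.

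Promoters of mitosis genes often carry the cell cycle homology region (CHR), where the MuvB complex binds. Its core letters TTTGAA, on either strand, were in 46 of 65 matched mitosis genes (70.8%), against 11.8% of all 7477 matched genes and 15.6% of 45 matched DNA replication genes. The median ratio was 1.70 in the 46 with these letters and 1.67 in the 19 without. Windows of Ccnb2 and Cdk1 are shown because each holds the letters more than once, and that of the replication-licensing gene Cdc6 because it holds TTTCCCGC, the core of E2F sites, read along the opposite strand. GAAANNGAAA can share letters with either of the other motifs, which cannot overlap each other. Capitals mark TTTGAA in Ccnb2 (chr9:70421525-70421804, minus strand) and Cdk1 (chr10:69352883-69353162, minus strand), and the E2F letters in Cdc6 (chr11:98907901-98908180, plus strand), with build and orientation as above.
Ccnb2: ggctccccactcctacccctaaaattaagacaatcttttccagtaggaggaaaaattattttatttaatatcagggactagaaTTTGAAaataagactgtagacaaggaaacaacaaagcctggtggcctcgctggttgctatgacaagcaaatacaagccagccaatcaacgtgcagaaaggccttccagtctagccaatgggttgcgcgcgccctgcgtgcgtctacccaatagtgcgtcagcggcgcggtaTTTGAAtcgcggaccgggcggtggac
Cdk1: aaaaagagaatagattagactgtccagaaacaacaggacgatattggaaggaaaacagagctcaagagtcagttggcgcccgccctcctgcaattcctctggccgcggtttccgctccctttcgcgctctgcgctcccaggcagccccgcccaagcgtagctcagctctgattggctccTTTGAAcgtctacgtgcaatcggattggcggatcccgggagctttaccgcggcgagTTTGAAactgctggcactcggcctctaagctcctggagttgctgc
Cdc6: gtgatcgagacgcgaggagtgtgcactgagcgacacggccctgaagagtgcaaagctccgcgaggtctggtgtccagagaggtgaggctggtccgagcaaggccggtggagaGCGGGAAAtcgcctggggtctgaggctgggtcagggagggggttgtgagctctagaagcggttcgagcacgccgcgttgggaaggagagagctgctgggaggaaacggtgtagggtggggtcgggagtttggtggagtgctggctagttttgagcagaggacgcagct
The E2F letters were in 9 of 45 matched DNA replication genes (20%) and in 2.39% of all matched genes. Replication genes with them had a median ratio of 1.06 and those without 1.35.

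DNA replication genes were higher without exception in direction. All 57 measured rose, 40 were at least 2-fold higher, and the median was 1.31. Cyclins and E2F factors, which start the programme, had a median of 1.90. E2f8, a repressor of the E2F family, stood at 12.7 CPM (rTreg) and 6.60 CPM (aTreg) in WT, and at 48.5 and 43.9 CPM in the KO-labelled pair (2.71 [2.47 to 3.004]), and Ccna2, cyclin A2, went from 11.5 to 59.3 CPM in aTreg (2.36). Among 12 origin licensing genes 10 were 2-fold higher, with Mcm10 at 2.41 and Cdc6 at 2.29. All 7 genes of nucleotide supply were 2-fold higher, among them Rrm2 (2.17), a subunit of ribonucleotide reductase. Genes of the fork and polymerases spread from 0.33 (Rpa1) to 2.70 (Clspn, a checkpoint mediator). Pcna, the sliding clamp, had a ratio of 0.43. Uhrf1, which recruits the maintenance methyltransferase, went from 41.2 to 180 CPM (2.12), and Dnmt1, that methyltransferase, from 188 to 386 CPM (1.04), while the other DNA methylation and Polycomb genes had no member 2-fold apart. Among brakes of the cycle, 4 of 5 measured inhibitors of cyclin-dependent kinases were above 0, with a median of 0.89. Cdkn3, a phosphatase of cyclin-dependent kinases expressed in dividing cells, was at 2.38 and Cdkn1a, the inhibitor p21, went from 22.97 to 56.7 CPM (1.30). Cdkn1b, the inhibitor p27, fell (−0.49). Of 17 p53 target genes 5 rose and 8 fell, beside 24.4% and 22.8% of all genes tested. Btg2, an antiproliferative gene, went from 385 to 124 CPM (−1.64) and Sesn1, a stress-response gene, from 165 to 74.6 CPM (−1.15).

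Genes listed as effectors of activated Treg cells were higher, and so were galectins, S100 proteins and annexins, which the list shares in part. Of 34 measured activated Treg genes, 29 rose and 2 fell, 14 were at least 2-fold higher, and the median was 0.83. Effector molecules carried this: 11 of 12 were 2-fold higher, against 3 of 13 receptors and none of 9 transcription factors. Lgals3, the sugar-binding protein galectin-3, stood at 15.2 CPM (rTreg) and 14.4 CPM (aTreg) in WT, and at 86.0 and 118 CPM in the KO-labelled pair (3.03 [2.86 to 3.21]). Lgals1, galectin-1, went from 170 to 713 CPM in aTreg (2.07). Anxa2, a calcium-dependent membrane protein, was at 93.9, 47.6, 321 and 321 CPM in the 4 libraries in the same order (2.75 [2.66 to 2.85]). Of the 17 measured galectin, S100 and annexin genes 13 rose, none fell and 8 were at least 2-fold higher. As a group they did not mark the activated state in WT. Their median log2 ratio of WT aTreg over WT rTreg was −0.03, with 7 of the 17 above 0. S100a6, which binds calcium, went from 84.2 to 324 CPM (1.94), and S100a10, the partner of annexin A2, had 1.27. Receptors past 2-fold included Ccr2 (1.27) and Klrg1 (1.42), which mark migration to inflamed tissue and late differentiation. Factors of the effector state were higher by less: Batf 0.83 and Prdm1, which encodes BLIMP-1, 0.82. Not every activation marker went up. Cd44 and Pdcd1, the gene of PD-1, fell, with aTreg ratios of −0.32 and −0.39, and Irf4, a factor of effector Treg cells, was at 152 and 135 CPM (−0.18) and did not pass.

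Cytoskeletal genes gave the largest gains in CPM. Vim, which encodes the intermediate filament vimentin, stood at 865 CPM (rTreg) and 665 CPM (aTreg) in WT, and at 2129 and 2192 CPM in the KO-labelled pair, a gain of 1527 CPM in aTreg and a ratio of 1.72. The actin genes Actg1 (1.14) and Actb (0.65) followed, with gains of 1469 and 1435 CPM. Stmn1, a tubulin-binding protein of dividing cells, was higher by 1.92 and the motor gene Myo1f by 1.29. Of 30 measured cytoskeletal genes, 21 rose and 2 fell, the actin crosslinker Actn1 (−0.65) and the tubulin Tubb2a (−0.61), with a median of 0.49. The largest losses were those of Malat1, a nuclear long noncoding RNA (2680 to 860 CPM, −1.64), the AP-1 factor Junb (3635 to 1918 CPM, −0.92) and Zfp36l2, which destabilises mRNAs (2499 to 1122 CPM, −1.16).

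Metabolic and protein-quality genes were higher by smaller ratios, and few reached 2-fold. Of 25 glycolysis genes 16 rose and 3 fell (median 0.40). The enzyme gene Tpi1 went from 66.0 to 183 CPM (1.47), the lactate exporter Slc16a3 from 13.2 to 35.3 CPM (1.41) and Hk2, which commits glucose to glycolysis, from 9.13 to 19.8 CPM (1.11). The regulators Pfkfb2 and Pfkfb4 were on the other side (−0.87 and −0.91), and Pfkfb4 did not pass. Of 22 cholesterol synthesis genes 12 rose and 2 fell (median 0.50), led by Idi1 (1.29) and Hsd17b7 (1.13). Of 75 oxidative phosphorylation subunits 39 rose and 5 fell with a median of 0.28, and none was 2-fold apart. The citric acid cycle (12 of 22 rose, 1 fell) was led by Idh3a at 0.93. Proteasome subunits had a narrow spread, from −0.18 to 0.87, and 29 of 35 rose and 1 fell. Of 34 genes of the unfolded protein response and ER folding, 22 rose and 2 fell. Ern1, which encodes the stress sensor IRE1, went from 19.0 to 49.0 CPM (1.36). Cytosolic ribosomal proteins went the other way: 48 of 80 fell and 6 rose, with a median of −0.30 and 1 gene, Rpl22l1, past 2-fold (−1.25). Short transcripts of this kind have many pseudogene copies, so single values are uncertain. Factors of ribosome assembly had a median of −0.06, with 3 of 26 rising and 9 falling.

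Early-response genes, which switch on within minutes of receptor signals and also of cell handling, were lower in KO-labelled aTreg. Of 37 measured, 25 fell and 1, Batf, rose, 8 were at least 2-fold lower and none 2-fold higher, and the median was −0.58. Egr1, a factor induced by T cell receptor and growth signals, stood at 164 CPM (rTreg) and 916 CPM (aTreg) in WT, and at 161 and 247 CPM in the KO-labelled pair. Only the WT aTreg library stood apart, with an aTreg ratio of −1.89 [−1.94 to −1.84] beside a rTreg ratio of −0.03. Npas4, another induced factor and the lowest of all ranked genes, was at 7.005, 17.05, 2.95 and 3.20 CPM in the same order (−2.38 [−2.83 to −2.02]). Fos, of the AP-1 pair, went from 719 to 310 CPM in aTreg (−1.21) and Fosb from 535 to 274 CPM (−0.97). Dusp1, which switches off MAP kinases, was at 651, 1031, 325 and 393 CPM (−1.39). Nr4a2 was at −1.36 and Nr4a1, whose product tracks receptor strength, at −0.52 in aTreg and 0.06 in rTreg, and the test over both states did not call it. In WT the list stood a median of 0.48 higher in aTreg than in rTreg, and between the KO-labelled libraries 0.23 higher. Signalling genes above them differed less: of 33 T cell receptor signalling genes 3 rose and 12 fell, none was 2-fold apart, and the median was −0.13. Heat shock chaperones, which answer stress in handling too, had a median of −0.19. Of 20, 4 rose and 10 fell, with Hsph1 (319 to 103 CPM, −1.63) and Dnajb4 (−1.56) past 2-fold. Clock genes, which follow the hour of the day, had a median of −0.57, and 7 of 13 fell, among them Nr1d2 (50.8 to 18.8 CPM, −1.43) and Per1 (334 to 198 CPM, −0.76). The sources do not give the hour of collection, and its part was not tested.

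The other lower genes named here had varied functions. Ryr2, a calcium release channel of the endoplasmic reticulum (chromosome 13, 11553102 to 12106945, minus strand), stood at 24.4 CPM (rTreg) and 74.3 CPM (aTreg) in WT, and at 7.49 and 16.5 CPM in the KO-labelled pair (−2.17 [−2.35 to −1.996]). Gucy1a1 and Gucy1b1, the subunits of the nitric oxide receptor that makes cyclic GMP, had ratios of −2.17 and −1.05. Chdh, a choline dehydrogenase, was at −2.06 and Fam43a at −2.06. H2-Ob, which restrains peptide loading of MHC class II, was at 53.4, 49.5, 17.4 and 12.2 CPM in the 4 libraries (−2.02), while Cd74, the invariant chain of the same pathway, went from 36.5 to 98.2 CPM in aTreg (1.43). The zinc-finger repressors Zbtb10 (−2.01) and Zbtb20 (−1.90), the imprinted noncoding RNA Peg13 (−1.97) and the Notch regulator Dtx4 (−1.88) were also among the lowest 15. Of 203 genes at least 2-fold lower, 170 were in none of the 50 lists and were not sorted by function. The lists were chosen with earlier results known, so this count depends on which functions were listed.

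Genes of Treg identity centred near 0 as a group, and a few surface genes of suppression were lower. Of 28 measured, 9 rose and 9 fell, 4 were at least 2-fold lower, and the median was −0.13. Itgb8, the integrin chain with which Treg cells activate TGF-beta, stood at 32.1 CPM (rTreg) and 55.1 CPM (aTreg) in WT, and at 10.4 and 15.7 CPM in the KO-labelled pair (−1.80 [−1.998 to −1.62]). Cd83, a surface protein of activated Treg cells, was at 27.0, 88.3, 17.3 and 25.4 CPM (−1.79), and again WT aTreg stood apart. Nt5e, the enzyme CD73 that makes adenosine, went from 430 to 168 CPM in aTreg (−1.36), while Entpd1, the enzyme CD39 that acts before it, went from 33.1 to 61.3 CPM (0.89). Nrp1, a marker of thymus-derived Treg cells, was at −1.06. Il10, the suppressive cytokine, stood at 4.05 CPM (rTreg) and 47.9 CPM (aTreg) in WT, and at 7.44 and 25.5 CPM in the KO-labelled pair, so it was lower in aTreg (−0.90) and higher in rTreg (0.86). Ctla4 was at 352 and 349 CPM (−0.01), and Il2ra, the high-affinity interleukin-2 receptor chain, rose (0.37). Of the 6 transcription factors of the list 3 fell and none rose; Ikzf2, which encodes Helios, was at 656 and 568 CPM (−0.21) and did not pass. Genes of the TGF-beta pathway were lower, with a median of −0.34. Of 20, 12 fell and 1 rose, and the receptor Tgfbr2 went from 330 to 200 CPM (−0.72) and the inhibitor Smad7 from 257 to 147 CPM (−0.81). Resting-state genes fell in 20 of 30 cases and rose in 3, with a median of −0.38. Il6ra, a cytokine receptor of resting cells, went from 283 to 139 CPM (−1.02), Id3, a factor of the resting state, was at −0.91 and Bach2, a repressor of effector genes, at −0.74. Myb rose in this list (1.09).

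Genes around RIPK1 differed little, apart from caspases and partners of necroptosis. The study's title names RIPK3 and FADD. Ripk3 stood at 67.9 CPM (rTreg) and 67.9 CPM (aTreg) in WT, and at 82.3 and 96.0 CPM in the KO-labelled pair (0.50 [0.40 to 0.60], edgeR adjusted p = 0.0009). Fadd, the adaptor of death receptors, went from 10.1 to 16.1 CPM in aTreg (0.68 [0.42 to 0.95], edgeR adjusted p = 0.0015). Casp8 was at 199 and 194 CPM (−0.04) and did not pass. Mlkl, the executioner of necroptosis, was below the level minimum, at 1.85 and 5.01 CPM. Casp1 (1.29) and Casp4 (1.23), both of inflammatory cell death, were at least 2-fold higher. Of 39 measured genes of the pathway 11 rose and 6 fell, 3 were 2-fold higher and none 2-fold lower, and the median was 0.09. The genes of the receptor complex itself, 9 measured, had a median of −0.06. In the NF-kappaB pathway, to which RIPK1 signals, 7 of 30 rose and 11 fell (median −0.12). Over all genes tested, 24.4% rose and 22.8% fell. Tnfaip3, which encodes the brake A20, went from 2370 to 1591 CPM (−0.58), and Bcl3, a coactivator, from 67.7 to 120 CPM (0.82). Of 14 BCL2 family genes 6 rose and 6 fell. The death effector Bak1 was higher (1.06), and the BH3-only genes Bmf (−1.63) and Bcl2l11, which encodes BIM, (−0.90) were lower. Within 5 Mb on either side of Ripk1, 31 other genes were measured, 1 of them 2-fold higher, Serpinb9 (1.29), with a median of 0.04.

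Receptor genes differed most at a few members. Havcr2, the checkpoint receptor TIM-3 (chromosome 11, 46454935 to 46481255, plus strand), stood at 1.67 CPM (rTreg) and 2.43 CPM (aTreg) in WT, and at 15.3 and 40.9 CPM in the KO-labelled pair (4.02 [3.66 to 4.52]). With both WT levels under 5 CPM, Havcr2 was kept only through the KO-labelled libraries. The other inhibitory receptors were led by Klrg1 (48.4 to 130 CPM), and the group's median was −0.01 over 13 genes. Costimulatory receptors had a median of 0.30, with 7 of 12 rising and 2 falling and Icos at 0.64. Of 17 chemokine and migration receptors 5 rose and 5 fell, beside 24.4% and 22.8% of all genes tested. The tissue-homing receptor Gpr15 went from 11.4 to 24.5 CPM (1.10), and Cxcr5, which leads cells into B cell follicles, was at 18.6, 42.3, 20.2 and 22.3 CPM in the 4 libraries (−0.92) and did not pass. Bcl6, the factor of follicular cells, fell (−1.13). Integrin Itga2 was higher (1.34). Cytokine receptors were close to 0 as a group (median −0.12 over 13 genes), with Il2rb at 0.53 and Il7r at −0.59. Regulators of G-protein signalling, which dampen chemokine receptors, had a median of −0.26 over 10 genes, with Rgs9 at −1.73 and Rgs16 at −1.43.

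The aTreg ratios were set beside those of the rTreg libraries, which share no library with them. The labels do not say whether the rTreg and aTreg cells of a genotype came from separate mice. Xist differed in rTreg too, at 299 CPM in WT and 0.284 CPM in KO-labelled rTreg, and its part in shared ratios was not tested. Of the 367 genes at least 2-fold higher in aTreg, 250 were also at least 2-fold higher in rTreg and none was below 0 there. Of the 203 lower genes, 83 were at least 2-fold lower in rTreg and 3 were above 0. Mitosis and replication genes had larger ratios in aTreg (medians 1.70 and 1.31) than in rTreg (1.08 and 1.06), interferon-gamma response and activated Treg genes smaller ones (0.77 and 0.83 against 1.26 and 1.02). One library a group leaves no test of these differences. Genes at least 2-fold apart in aTreg with a rTreg ratio within 0.25 of 0 numbered 1 higher and 9 lower. The higher one was Ggt1, which breaks down glutathione outside the cell, at 6.19 CPM (rTreg) and 2.96 CPM (aTreg) in WT and 6.98 and 11.8 CPM in the KO-labelled pair (1.96 [1.58 to 2.43]). Besides Egr1, the lower ones included Naip6, an inflammasome sensor (9.91, 28.7, 8.69 and 12.8 CPM, −1.15), and Epcam, an adhesion molecule (5.34, 17.3, 4.88 and 8.31 CPM, −1.05). For these 3 lower genes the WT aTreg library was above the other 3. Naip6 has near-identical neighbours, so its counts are uncertain.

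**Figure D4:**
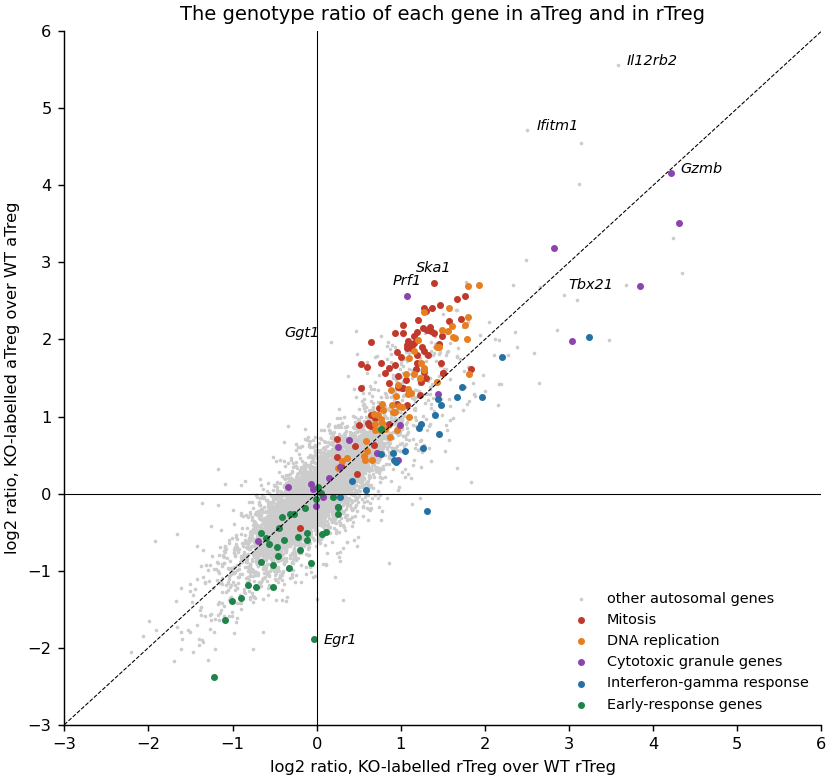
Log2 ratio of KO-labelled over WT in aTreg (y axis) against rTreg (x axis) for the autosomal genes, 1 point a gene, with 5 lists in colour and a dashed line of equal ratios. Mitosis and replication genes lie above the dashed line in most cases, interferon-gamma response genes below it, and Egr1 lies at −0.03 in rTreg and −1.89 in aTreg.

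**Figure D5:**
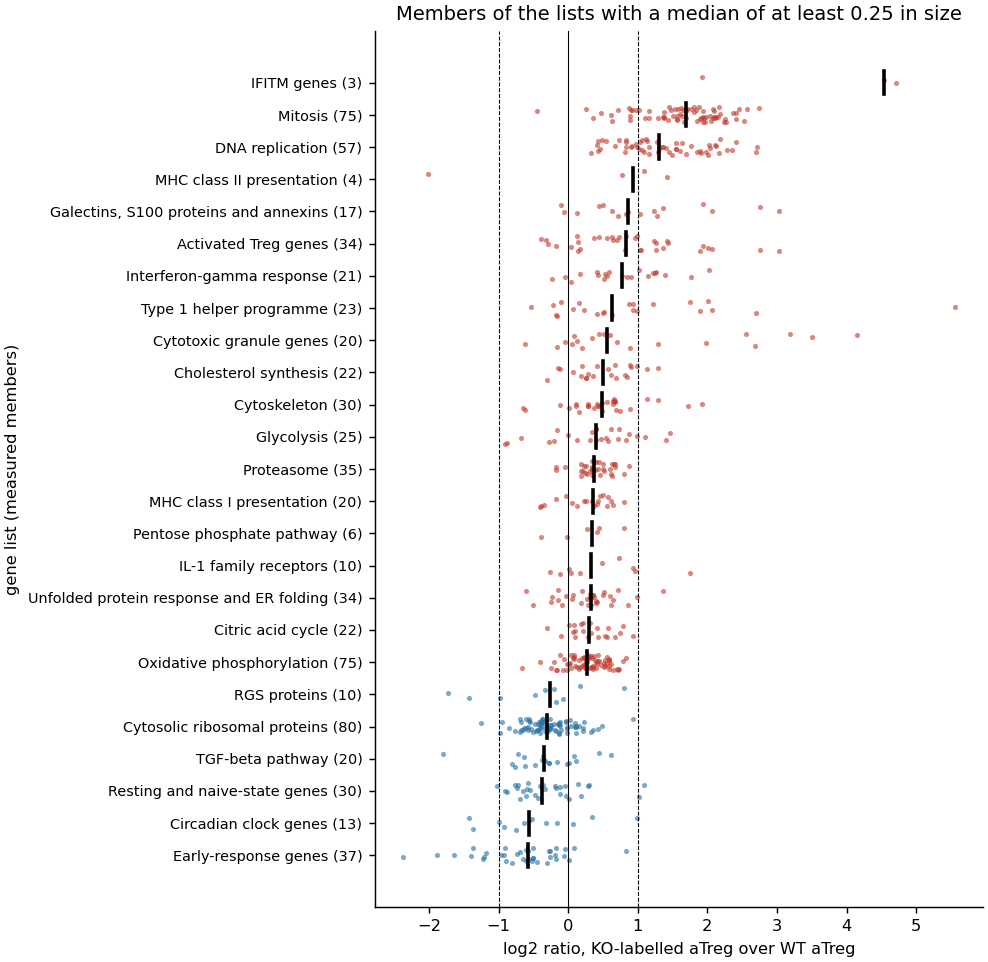
Log2 ratio in aTreg (x axis) of every measured member of the 25 lists whose median was at least 0.25 in size (y axis, number of members in brackets), 1 point a gene, with a black bar at the list's median and dashed lines at 2-fold. Points of the mitosis and replication lists gather beyond the upper 2-fold line, while the proteasome, oxidative phosphorylation and ribosomal lists stay between the lines with few exceptions.

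Ratios differed with the level and length of a gene. With genes split by mean level into 5 classes of equal size, 7.55% of the lowest class were at least 2-fold higher and 5.68% lower, against 1.71% and 0.911% of the highest class. The median ratio went from 0.12 in the class of shortest transcripts, of 5, to −0.12 in the longest, and in rTreg from 0.09 to −0.11. Genes not coding for protein (296) had a median of −0.12, with 7 at least 2-fold higher and 13 lower. By chromosome, the share of genes at least 2-fold higher ran from 2.05% (chromosome 19) to 5.16% (chromosome 14). Immunoglobulin light chain mRNA, Igkc, was at 1.51 CPM in WT aTreg and 16.0 in KO-labelled aTreg (3.32), while the 10 B cell markers summed to 25.3 and 22.9 CPM. Red cell genes summed to 1.75 and 12.05 CPM and neutrophil genes to 0.923 and 2.45 CPM. The part of RNA from other cells in the results was not tested.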

How the data were processed

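Each of the 4 mouse libraries was made from TRIzol-extracted RNA and prepared with a SMARTer mRNA kit, as the labels' protocols state. HISAT2 2.2.1, featureCounts 2.0.1 and GRCm38 are named in the submitters' processing notes; the sources used here give neither annotation nor strand setting. The authors deposited raw counts per gene, used throughout, and log2-scale variance-stabilised values, used only as an alternative. Libraries held 17588754 to 20868319 counts. Counts were scaled to CPM with TMM (edgeR 4.0.16, R 4.3.3, prior count 2), and genes with a mean CPM of at least 5 were kept (9680, holding 99.31% of counts). Ratio intervals were exact binomial (Clopper-Pearson, 95%) given the summed count; PCR reads are not independent molecules, so they cover counting error only. With 1 library a group no p-value was computed for aTreg alone. Genotype calls came from edgeR's quasi-likelihood test with state and genotype as terms (1 residual degree of freedom, prior 11.75), Benjamini-Hochberg adjusted p under 0.05. The scripts were tested on simulated data.

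The comparison, the 50 gene lists and the rule for named genes were chosen with earlier results of these data known. The rule took the 15 extreme ratios per direction, the 10 extremes among genes of at least 100 CPM, the 10 largest CPM differences, the 4 largest ratios of each list, 14 single genes, the 10 extremes per direction with a rTreg ratio under 0.25, the 4 largest near Ripk1 and 2 markers per other cell type. Predicted genes, pseudogenes and receptor segments were left out of rankings. Other genes named, such as Il10, Fos, Prf1 and Cdk1, were chosen after their values were seen. Some genes that the rule names are not reported here. Promoter windows and coordinates of sequences came from RefSeq on GRCm38.p6, matched by symbol (7477 of 9332 genes), and gene positions from GENCODE M21. Alternatives were other scalings, level minimums, a prior count of 0.5, all chromosomes, the interval rule, the deposited log2 values, DESeq2 1.42.0, genotype alone and, added after seeing the data, centring within 5 classes of transcript length. Tables and figures used numpy 2.4.6, pandas 2.3.3, scipy 1.17.1 and matplotlib 3.10.9.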

Additional observations from a re-analysis of the deposited data

Results flagged for a closer look

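For 6 genes the KO-labelled over WT log2 ratio had opposite signs in aTreg and rTreg, each with a counting interval that left out 0. The difference between the states was not tested, since each rests on 1 library a group. Il10, the suppressive cytokine, had −0.90 in aTreg and 0.86 in rTreg, and Cxcl10, an interferon-induced chemokine, −0.23 and 1.31. Tnf had −0.18 in aTreg and 0.60 in rTreg. Nr4a1, an early-response factor, had −0.52 and 0.062. Irf4 and Ikzf2, transcription factors of Treg cells, had −0.18 and −0.21 in aTreg and 0.25 and 0.14 in rTreg. None of the 6 passed edgeR's quasi-likelihood test over both states at an adjusted p of 0.05. That test fits 1 genotype ratio for both states, so opposite signs offset each other. Not passing therefore says nothing on the aTreg ratio alone.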

How the results depend on the processing

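With another level minimum, the genes past 2-fold numbered 574 higher and 445 lower with a mean CPM of at least 1, and 1558 and 1403 with no filter. Requiring the whole counting interval past 2-fold left 89 lower genes, and the deposited variance-stabilised values gave 126 higher and 33 lower. DESeq2 called 2527 genes over both states, and genotype alone as a term called 1626, against 4573. The 137 genes at least 2-fold apart that the naming rule or the text covers kept their sign under the other scalings, prior count and deposited values, as did the 25 lists with a median of at least 0.25 in size. Under the scalings this was fixed in advance, since their largest shift was 0.042, far below both cutoffs. Deposited values come from the same libraries, so kept signs are no independent check. Sizes moved more: the deposited values shifted 234 of 307 named genes beyond their counting error, by up to 3.96 among those 2-fold apart, and 13 of 50 list medians, with mitosis at 0.94 and the IFITM genes at 1.47. With no filter the IFITM median was 1.92. Centring by transcript length, chosen after seeing the data, gave 354 higher and 208 lower genes and shifted 82 named genes and 12 list medians beyond counting error, by up to 0.125 for the genes 2-fold apart and the 25 lists, with oxidative phosphorylation at 0.20, the proteasome at 0.27 and cytosolic ribosomal proteins at −0.39. Upper-quartile scaling moved the median of all genes to −0.04. No paired analysis was possible because each group holds 1 library and the labels carry no replicate numbers; for the same reason no library could be left out of the aTreg ratio.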

Other observations

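Some genes with high ratios were in none of the lists; those named here were picked for their ratios after their values were seen, so they show no more than their own values. Brca1, which acts in repair of double-strand breaks, stood at 14.0 CPM (rTreg) and 8.64 CPM (aTreg) in WT, and at 37.2 and 36.0 CPM in the KO-labelled pair, a log2 ratio of 2.05 [1.82 to 2.31] in aTreg. The nuclease gene Exo1 had 2.33, Fancd2, of the Fanconi anaemia pathway, 1.98 and Rad54l, of homologous recombination, 1.89. Foxm1 and Mybl2, transcription factors of late cell cycle genes, had 1.76 and 1.81. All 6 rose in edgeR's test over both states.

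Hip1, an endocytic adaptor, stood at 6.15 CPM (rTreg) and 20.4 CPM (aTreg) in WT, and at 47.9 and 122 CPM in the KO-labelled pair (2.57 [2.43 to 2.73]). Slc15a3, a lysosomal peptide transporter, had 2.68, and Epas1, a hypoxia-inducible factor, went from 9.62 to 45.4 CPM in aTreg (2.23). Cd80, a ligand of CTLA-4 and CD28, went from 5.92 to 24.0 CPM (1.999), and the transcription factor gene Runx2 from 38.7 to 134 CPM (1.79). These also rose.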
